A study of Mus musculus with 16 samples.

Results

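The Serpina1 copies and the other clade A serpin genes of the liver were followed across 16 liver libraries of mice on a high-fat diet. The 10 genes, Serpina1a to Serpina1e, Serpina6, Serpina7, Serpina10, Serpina11 and Serpina12, were picked from earlier results of these data because Serpina1e was far higher in 1 group, and they are 10 of the 55487 rows of the deposited table. All 10 passed the filter on low counts, which kept 13905 genes. The strain was C57/Bl6J and the genotype J1 J2 lf/lf in every library, controls included, and the series places the change in hepatocytes. The groups were 5 libraries named GFP, the controls, 5 named Cre, given for the 7a isoforms of the JNK kinases, and 6 named Flpo, given for the 7b isoforms. The age and sex of the mice, the vector and the promoter that drove the recombinase are not given in the labels. The question of the series is how livers that differ in these isoforms differ from each other.

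Serpins are protease inhibitors that trap a protease with an exposed loop, the reactive centre loop, and clade A holds the secreted members made mainly by hepatocytes. In humans 1 gene encodes alpha-1-antitrypsin, the plasma inhibitor of neutrophil elastase, whereas C57BL/6 mice carry the 5 near-identical copies Serpina1a to Serpina1e. Other members of the clade have left protease inhibition and carry hormones: Serpina6 is corticosteroid-binding globulin and Serpina7 is thyroxine-binding globulin. Serpina10 is the protein Z-dependent inhibitor of coagulation factor Xa, Serpina12 is vaspin, an inhibitor of kallikrein 7, and the target of Serpina11 is not well defined.

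In the annotation of GENCODE M21 on build GRCm38, 9 of the 10 genes lay on the minus strand of chromosome 12 and Serpina7 on the X chromosome (chrX:139079257-139085236). The 9 genes ran from Serpina10 (chr12:103614786-103631444) through Serpina6, the Serpina1 copies and Serpina11 (chr12:103980243-103989957) to Serpina12 (chr12:104028769-104044443), a distance of 429658 bases. Serpina1e (chr12:103946931-103958975, 5 exons in its longest coding transcript) lay 21267 bases from Serpina11 and 42043 bases from Serpina1c. The annotated span of Serpina1b (chr12:103728156-103830373) contains the whole of Serpina1d.

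Coding sequences of the 5 copies were 96.3% to 98.5% identical in pairs, and 86 of the 1239 aligned positions without gaps differed between copies. The 60 bases with the most differences lay in the last exon, near the 3′ end of the coding sequence, where 18 of 60 positions differed, or 30%, against 6.94% over the whole coding sequence. In serpins the reactive centre loop lies near the C-terminal end of the protein, and these stretches are shown because the copies are least alike there. They are given 5′ to 3′ from the GENCODE M21 transcripts, and capitals mark the positions that differ between copies. The stretch of Serpina1e is chr12:103947100-103947159 and that of Serpina1a is chr12:103853757-103853816, both in GRCm38 on the minus strand.
Serpina1a: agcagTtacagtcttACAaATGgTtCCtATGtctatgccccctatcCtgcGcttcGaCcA
Serpina1b: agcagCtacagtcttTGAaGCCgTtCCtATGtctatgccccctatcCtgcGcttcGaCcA
Serpina1c: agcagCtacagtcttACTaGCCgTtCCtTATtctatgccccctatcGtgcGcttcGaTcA
Serpina1d: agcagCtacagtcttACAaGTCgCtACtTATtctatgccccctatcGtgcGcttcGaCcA
Serpina1e: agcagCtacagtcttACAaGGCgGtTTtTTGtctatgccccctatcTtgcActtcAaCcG

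At 4 of these 60 positions Serpina1e alone differed from a base common to the other copies, and over the coding sequence there were 17 such positions. The likeness between copies bears on the counts. Of all stretches of 150 bases, the stated read length, 7.57% of those in Serpina1e transcripts also occurred in another copy, against 50.5% in Serpina1c, 40.7% in Serpina1a, 20.2% in Serpina1d and 16.4% in Serpina1b. The sources used here do not say how reads that match several copies were shared out, so the values of Serpina1a and Serpina1c in particular are uncertain, and the sum over the 5 copies is reported beside them.

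Promoters were taken from RefSeq on GRCm38.p6, where 8 of the 10 genes had an entry of 250 bases before to 50 after the start. Of 238 positions aligned in all 5 copies, 211 were the same in every copy and Serpina1e alone differed at 1. The promoters of Serpina1e and Serpina1b were 98.4% identical, with 4 of 248 aligned bases different and 104 bases in gaps not compared. In the controls Serpina1b was among the most abundant copies and Serpina1e was the least abundant. The part of the promoters in these levels was not tested. The level of Serpina11 is described with that of Serpina1e below. The 250 bases before the start of Serpina1e, Serpina1b and Serpina11 are given 5′ to 3′ on the minus strand. They lie at chr12:103956898-103957147 (Serpina1e), chr12:103738190-103738439 (Serpina1b) and chr12:103989958-103990207 (Serpina11), and capitals mark matches to the motifs searched. The RefSeq start of Serpina1e lies 2078 bases inside its GENCODE span and that of Serpina1b 92184 bases inside.
Serpina1e: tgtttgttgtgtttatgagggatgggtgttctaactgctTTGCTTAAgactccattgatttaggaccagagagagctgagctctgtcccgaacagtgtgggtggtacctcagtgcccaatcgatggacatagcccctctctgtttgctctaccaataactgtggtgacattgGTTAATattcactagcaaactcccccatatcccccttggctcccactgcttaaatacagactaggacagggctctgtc
Serpina1b: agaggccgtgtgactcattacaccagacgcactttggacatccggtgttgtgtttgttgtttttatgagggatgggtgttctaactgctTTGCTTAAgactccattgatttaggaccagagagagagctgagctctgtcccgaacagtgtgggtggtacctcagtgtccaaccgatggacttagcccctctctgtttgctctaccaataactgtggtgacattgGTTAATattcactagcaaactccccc
Serpina11: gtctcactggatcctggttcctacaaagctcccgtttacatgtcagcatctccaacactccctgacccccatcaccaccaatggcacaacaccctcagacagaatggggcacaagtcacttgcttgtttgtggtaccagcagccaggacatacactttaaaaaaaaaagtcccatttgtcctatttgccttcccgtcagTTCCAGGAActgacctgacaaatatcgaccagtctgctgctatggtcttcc

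The motifs were searched on both strands of the 300 bases, and no 2 matches overlapped. GTTAAT, part of the HNF1 site, was present in the promoters of all 5 copies and of Serpina7, and in 7.10% of all 32851 promoters of the table. In Serpina1e it began 78 bases before the RefSeq start, and in the other copies 16 to 27 bases before theirs. The bases on both sides of it were the same in all 5 copies, and the offset reflects where RefSeq places each start. TTGCNNAA, a form of the C/EBP site, was found in Serpina1a, Serpina1b, Serpina1d, Serpina1e, Serpina7 and Serpina12 and in 10.8% of all promoters. In Serpina1b, Serpina1d and Serpina1e it began 149 to 211 bases before the start, ahead of GTTAAT. The match in Serpina1a was another one, 24 bases after the start and beyond GTTAAT. TTCNNNGAA, the STAT5 site, was found in Serpina11 alone of the 8 genes, 51 bases before the start, and in 8.30% of all promoters. TATAAA was found in Serpina7 alone of the 8 genes and in 13.6% of all promoters. Nothing about binding was measured.

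Libraries held 27929393 to 36043322 estimated counts. Hepatocyte markers were high in every library, with a summed level of 53605 to 76770 TPM over 6 genes. Of the neutrophil markers, S100a8, S100a9 and Elane were above 0 in all 16 libraries. Retnlg was at 0 in 3 libraries, Mpo in 7 and Ly6g in 14, and the 6 markers summed to 0.987 to 12.8 TPM. Of 6 pancreas markers, Prss2 was at 0 in all 16 libraries and Cpa1, Ctrb1, Pnlip and Cel in at least 14, whereas Cela1 was present in all. Stellate cell markers summed to 22.6 to 40.1 TPM in GFP, 12.7 to 23.3 in Cre and 28.2 to 44.8 in Flpo. Of these 6 markers 3, Col1a1, Col3a1 and Lrat, were lower in Cre than in GFP (edgeR quasi-likelihood test, adjusted p = 0.00381, 0.00458 and 0.0166), beside 5.58% of all genes. The part of these cells in the results was not tested. Mapk8 and Mapk9, the JNK genes, had overlapping levels in all groups. Medians in GFP, Cre and Flpo were 12.8, 11.2 and 13.5 CPM (counts scaled to the size of the library with its TMM factor) for Mapk8, and 42.1, 31.2 and 46.7 CPM for Mapk9. For Mapk9 the overlap of Cre (28.3 to 41.7 CPM) with Flpo (40.5 to 51.2 CPM) was narrow. Levels of whole genes do not show which isoform was present. The running numbers in the sample titles fall in blocks by group, so any batch that follows them cannot be told apart from the group. Nothing in the labels says outright that each library is a separate animal, so p-values measure the spread between libraries, and in whole liver fewer cells of a type and less RNA per cell cannot be told apart.

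**Figure D1:**
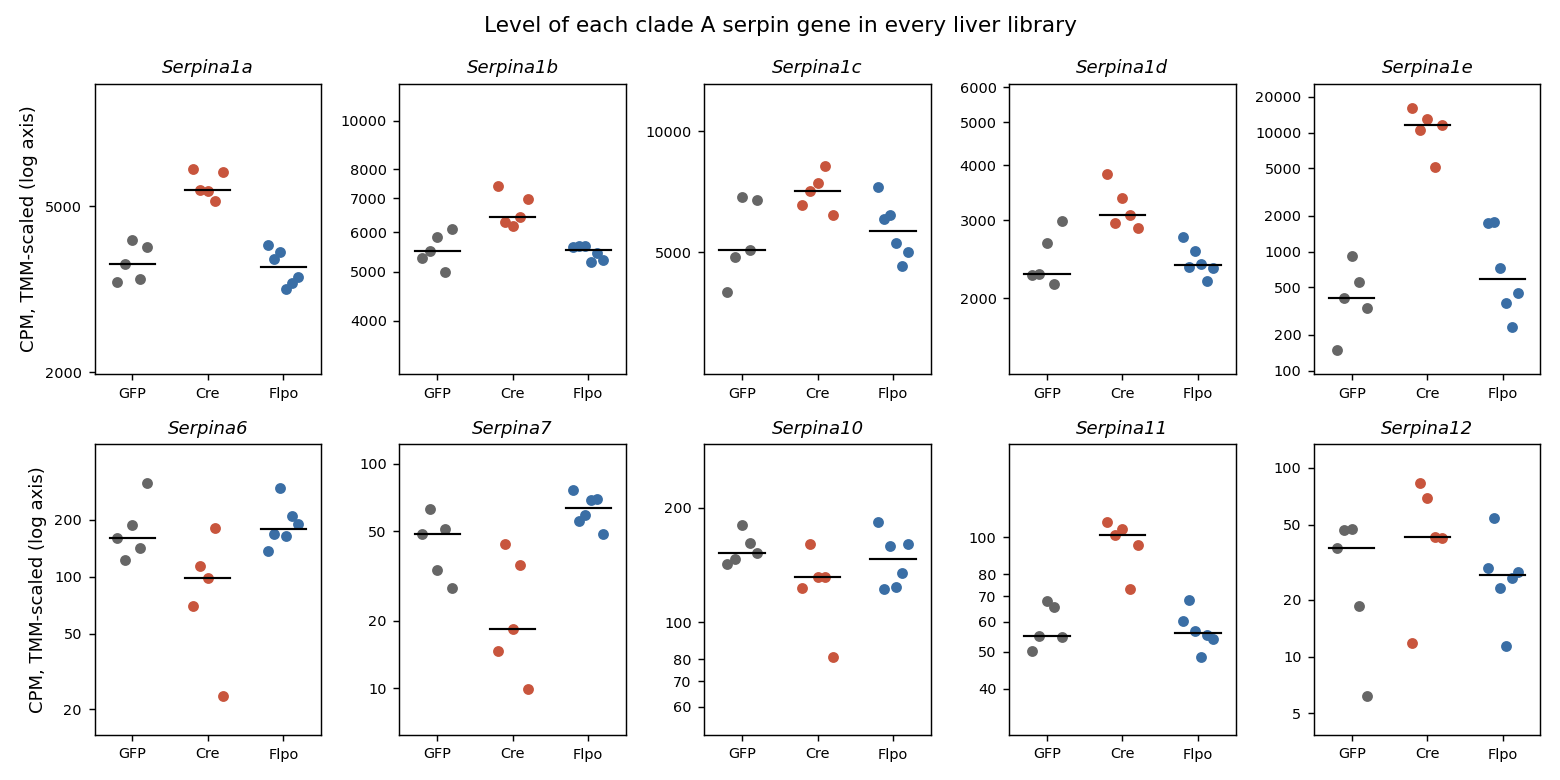
Level of each of the 10 serpin genes in every library, in CPM scaled with TMM factors on a log axis that differs between panels; each point is 1 library and each bar the group median. The 5 Cre libraries lie above all others for Serpina1e, Serpina1a, Serpina11 and, by a narrow gap, Serpina1b.

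Serpina1e, the copy least abundant in the controls, was the highest of all members in Cre. Its level was 149, 411, 923, 556 and 336 CPM in the GFP libraries and 16137, 10458, 12925, 5143 and 11501 CPM in the Cre libraries. In Flpo it ranged from 233 to 1773 CPM with a median of 591. The lowest Cre library, replicate 4, was above every GFP and Flpo library, and the groups GFP and Flpo overlapped, with Flpo replicates 1 and 2 (1730 and 1773 CPM) above all of GFP. The means were 475 ± 290 CPM (SD, n = 5) in GFP, 11233 ± 4021 (SD, n = 5) in Cre and 881 ± 694 (SD, n = 6) in Flpo. The fitted difference of Cre from GFP was a log2 fold change of 4.56 (SE 0.66), or 23.6-fold, and that of Flpo from Cre was -3.67 (SE 0.59). Serpina1e was chosen for this contrast, so these values describe and do not test it.

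Among the other copies the differences were small. Serpina1a measured 3296, 3640, 4158, 3354 and 3997 CPM in GFP, 6155, 5459, 5443, 5144 and 6029 CPM in Cre, and 3165 to 4042 CPM in Flpo with a median of 3567. All Cre libraries were above all others, at a log2 fold change of 0.61 (SE 0.10) from GFP. Serpina1d lay between 2156 and 2985 CPM in GFP and between 2887 and 3821 CPM in Cre, so that Cre replicate 5 fell below GFP replicate 5, and its log2 fold change was 0.39 (SE 0.11). Serpina1b lay between 5005 and 6079 CPM in GFP and between 6166 and 7408 CPM in Cre, with no overlap and a log2 fold change of 0.26 (SE 0.08). In deposited TPM its groups overlapped, at 5589 to 6108 in GFP and 5161 to 6899 in Cre, and a fit of log2(TPM + 1) gave 0.07. Serpina1c, with 3992 to 6843 CPM in GFP and 6183 to 8196 CPM in Cre, had overlapping groups and a log2 fold change of 0.37 (SE 0.15). The fit of log2(TPM + 1) gave 0.20 for Serpina1c and 0.20 for Serpina1d.

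Serpina11, the next gene along the chromosome after Serpina1e, was also higher in Cre. Its level was 50.1, 55.0, 68.1, 65.7 and 54.6 CPM in GFP and 110, 101, 105, 73.2 and 95.2 CPM in Cre. In Flpo it ranged from 48.3 to 68.3 CPM with a median of 55.9. The Cre libraries were above all others, by a log2 fold change of 0.72 (SE 0.12) from GFP, and Cre replicate 4 was the lowest of them, as it was for Serpina1e. The annotated span of Serpina11 overlaps that of the transcript Gm28577 on the same strand. Serpina12, which lies beyond Serpina9 on the same side, spread widely within every group: 6.16 to 47.2 CPM in GFP, 11.8 to 83.3 in Cre and 11.4 to 54.5 in Flpo. Its groups overlapped, and its log2 fold change of 0.68 in Cre against GFP had an SE of 0.55.

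The hormone carriers had lower means in Cre. Serpina7 measured 48.8, 62.8, 33.7, 51.0 and 27.9 CPM in GFP and 14.6, 43.7, 18.3, 35.5 and 9.93 CPM in Cre. In Flpo it ranged from 48.8 to 76.2 CPM with a median of 63.8. Every Flpo library was above every Cre library, whereas Cre and GFP overlapped, with log2 fold changes of 1.36 (SE 0.32) for Flpo against Cre and -0.87 (SE 0.33) for Cre against GFP. Serpina6 measured 160, 123, 187, 142 and 312 CPM in GFP and 69.9, 114, 98.1, 182 and 23.4 CPM in Cre. In Flpo it ranged from 137 to 294 CPM with a median of 179. Cre replicate 4 lay within the range of both other groups, and the log2 fold change from GFP was -0.92 (SE 0.40). Serpina10, which lies beside Serpina6, ranged from 142 to 181 CPM in GFP, 81.0 to 161 in Cre and 122 to 183 in Flpo, with overlap throughout and a log2 fold change of -0.32 (SE 0.15) in Cre against GFP.

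**Figure D2:**
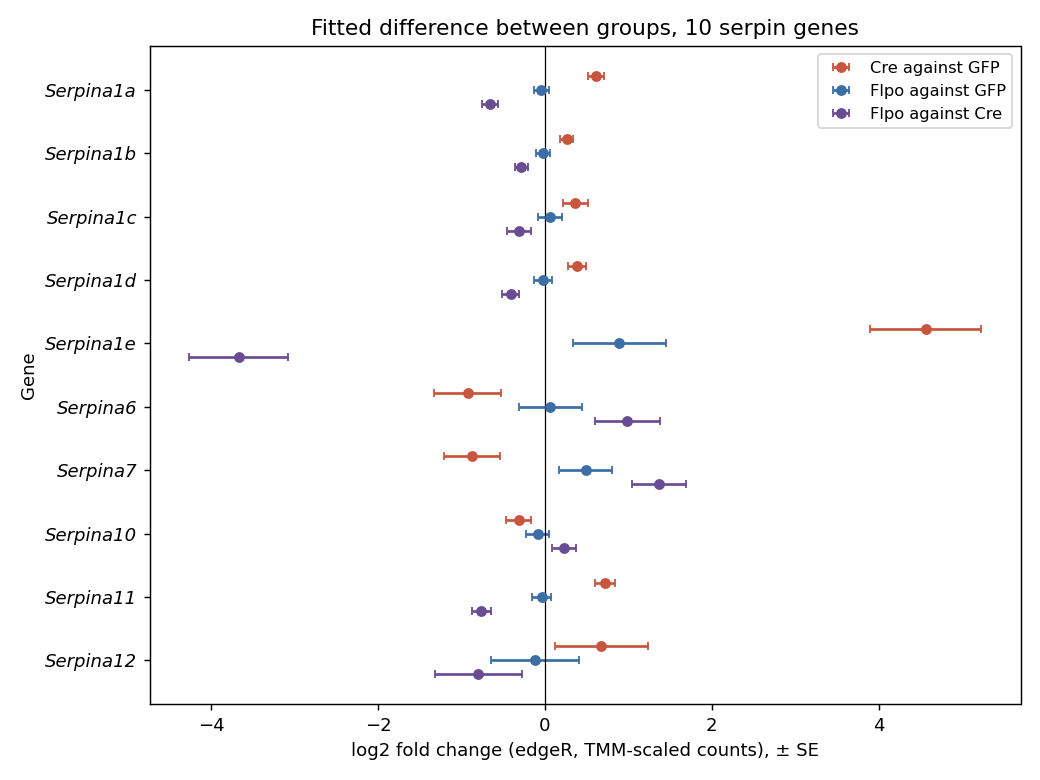
Fitted log2 fold change with its SE for each serpin gene in the 3 comparisons. Serpina1e stands apart at 4.56 in Cre against GFP, and every Flpo against GFP value lies between -0.12 and 0.89.

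At an adjusted p under 0.05, 4 of the 10 members were called higher in Cre than in GFP by edgeR (Serpina1a, Serpina1d, Serpina1e and Serpina11) and 0 lower, whereas DESeq2 called 5 higher and 1 lower. Of all 13905 genes, edgeR called 9.55% in that comparison, 3.97% higher and 5.58% lower. DESeq2 called more of the 13905 genes, 1850, with 819 higher and 1031 lower. The members' median log2 fold change was 0.38, against 0.00 over all genes. For Flpo against Cre, 1 member was called higher (Serpina7) and 5 lower (Serpina1a, Serpina1b, Serpina1d, Serpina1e and Serpina11), where 13.7% of all genes were called, 7.45% higher and 6.26% lower, and the members' median was -0.36, against 0.00. These counts use the contrast by which the members were picked and share the Cre libraries, so nothing is read from them. The call of Serpina1d in Cre against GFP is the least firm and was held in 18 of 28 alternatives. It was lost without any 1 of GFP replicates 1, 2 and 4 and Cre replicates 1 and 3 (log2 fold change 0.32 to 0.37). It was also lost with library totals (0.25) and with limma on log2(TPM + 1) and log2(TPM + 0.1) (0.20 in both). A fit of only the 2 groups compared (0.39) and a block for the replicate number (0.40) lost it too. With library totals in place of TMM factors, the median of all genes moved to -0.14 in Cre against GFP and the calls split into 300 higher and 1656 lower, against 552 and 776, while each of the 10 members kept its direction. In Flpo against Cre that scaling moved the median to 0.13 and the split from 1036 higher and 870 lower to 1810 and 454.

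Flpo against GFP is the comparison that the choice of members did not use. It shares the GFP libraries with the comparison by which Serpina1e was picked. Its tests here, and those of shares below, are therefore not fully independent of that choice. Of the 10 members 0 were called in Flpo against GFP by the edgeR quasi-likelihood test. There 0.0288% of all genes, 4 of 13905, were called. DESeq2 and limma-voom also called 0 of the 10, and 0 members had an unadjusted p under 0.05 in any of the 3 tools (smallest p 0.131, 0.0931 and 0.0821). The values with the largest size were those of Serpina1e, at a log2 fold change of 0.89 (SE 0.56, adjusted p = 0.636 by edgeR), and Serpina7, at 0.49 (SE 0.31, adjusted p = 0.644 by edgeR). For the other 8 members the log2 fold change lay between -0.12 and 0.07, with an SE from 0.08 to 0.53. The value of Serpina1e rested on Flpo replicates 1 and 2: without them, an alternative chosen after seeing the data, it was -0.10. The same pair had the largest share of counts on Mup genes (major urinary proteins) in Flpo, 6.49% and 4.78%, against 1.95% to 2.26% in the other 4 Flpo libraries, 2.24% to 3.91% in GFP and 5.65% to 13.8% in Cre. Flpo replicate 1 also stood apart over all genes, by a chi-square of the counts of 2 libraries averaged over genes. It was at 190 to 214 with the other Flpo libraries, which were at 31.0 to 86.4 among themselves. Its lowest value with any library was 124, with Cre replicate 4. The part of these differences in the result was not tested.

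**Figure D3:**
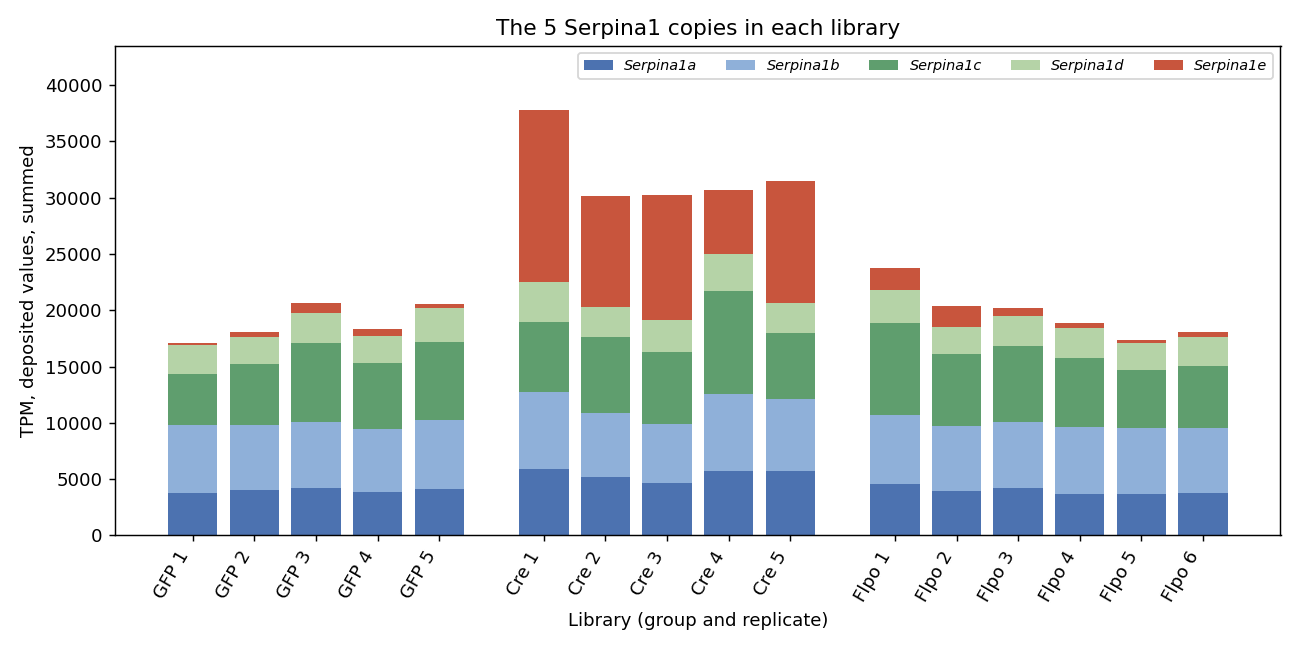
Deposited TPM of the 5 Serpina1 copies stacked for each library. The stacks reach 17074 to 20670 TPM in GFP, 30155 to 37801 in Cre and 17344 to 23769 in Flpo, and Serpina1e is 18.5% to 40.5% of the Cre stacks.

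TPM, which takes gene length into account, allows levels to be compared between genes. The 5 Serpina1 copies together took 1.71%, 1.80%, 2.07%, 1.83% and 2.06% of all TPM in the GFP libraries and 3.78%, 3.02%, 3.02%, 3.06% and 3.14% in the Cre libraries. In Flpo they took 1.73% to 2.38% with a median of 1.96%. The Cre libraries were above all others, and GFP and Flpo overlapped. The difference in mean summed TPM between Cre and GFP was 13115, of which 76.6% was Serpina1e. The sum of the other 4 copies was 18425 ± 1451 TPM (SD, n = 5) in GFP, 21496 ± 2291 (SD, n = 5) in Cre and 18823 ± 1684 (SD, n = 6) in Flpo. Fitted as 1 gene, the summed counts of the 5 copies had a log2 fold change of 0.94 (SE 0.12) in Cre against GFP, -0.90 (SE 0.12) in Flpo against Cre and 0.03 (SE 0.12, adjusted p = 0.949 by edgeR) in Flpo against GFP.

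Serpina1e made up 2.64% ± 1.41 (SD, n = 5) of the summed TPM of the copies in GFP, 32.6% ± 8.39 (SD, n = 5) in Cre and 4.62% ± 3.24 (SD, n = 6) in Flpo. In Flpo replicates 1 and 2 its part was 8.16% and 9.15%, above the highest GFP library at 4.55%. Between Flpo and GFP the mean difference was 1.98 percentage points in this part (exact permutation test, two-sided, p = 0.279, adjusted p = 0.530 over 2 tests) and 0.0852 points in the share of all TPM taken by the copies (p = 0.530, adjusted p = 0.530, same exact test). With 462 arrangements of the libraries the smallest p possible was 0.00216. Neither difference exceeded the spread between libraries, and without Flpo replicates 1 and 2 they were -0.0406 and -0.0289 points.

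The order of the copies by mean TPM was Serpina1c, Serpina1b, Serpina1a, Serpina1d and Serpina1e in both GFP and Flpo. Serpina1c and Serpina1b did not separate, since Serpina1c was the higher in 3 of 5 GFP and 4 of 6 Flpo libraries, whereas from Serpina1b downward each copy was above the next in every library of both groups. In Cre Serpina1e came first, at 10553 ± 3442 TPM (SD, n = 5), and was above Serpina1c (6855 ± 1276) in 4 of 5 libraries, the exception being replicate 4. The other copies kept their order in Cre. By mean TPM Serpina1e ranked 235 among all genes in GFP, 137 in Flpo and 17 in Cre.

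The members outside the cluster were at far lower levels, between 9.83 and 174 TPM in group means. In GFP the order was Serpina6 (163 ± 59.1 TPM), Serpina10 (99.7 ± 8.0), Serpina11 (60.1 ± 7.77), Serpina7 (40.6 ± 13.9) and Serpina12 (10.6 ± 6.06), each above the next in all 5 libraries. In Flpo the order was the same, but Serpina11 and Serpina7 did not separate, with Serpina11 higher in 3 of 6 libraries. In Cre Serpina11 (86.7 ± 8.04 TPM), Serpina6 (78.6 ± 54.2) and Serpina10 (70.9 ± 17.6) lay within their spread, and Serpina6 was above Serpina10 in 2 of 5 libraries. All SD are over n = 5 libraries.

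**Figure D4:**
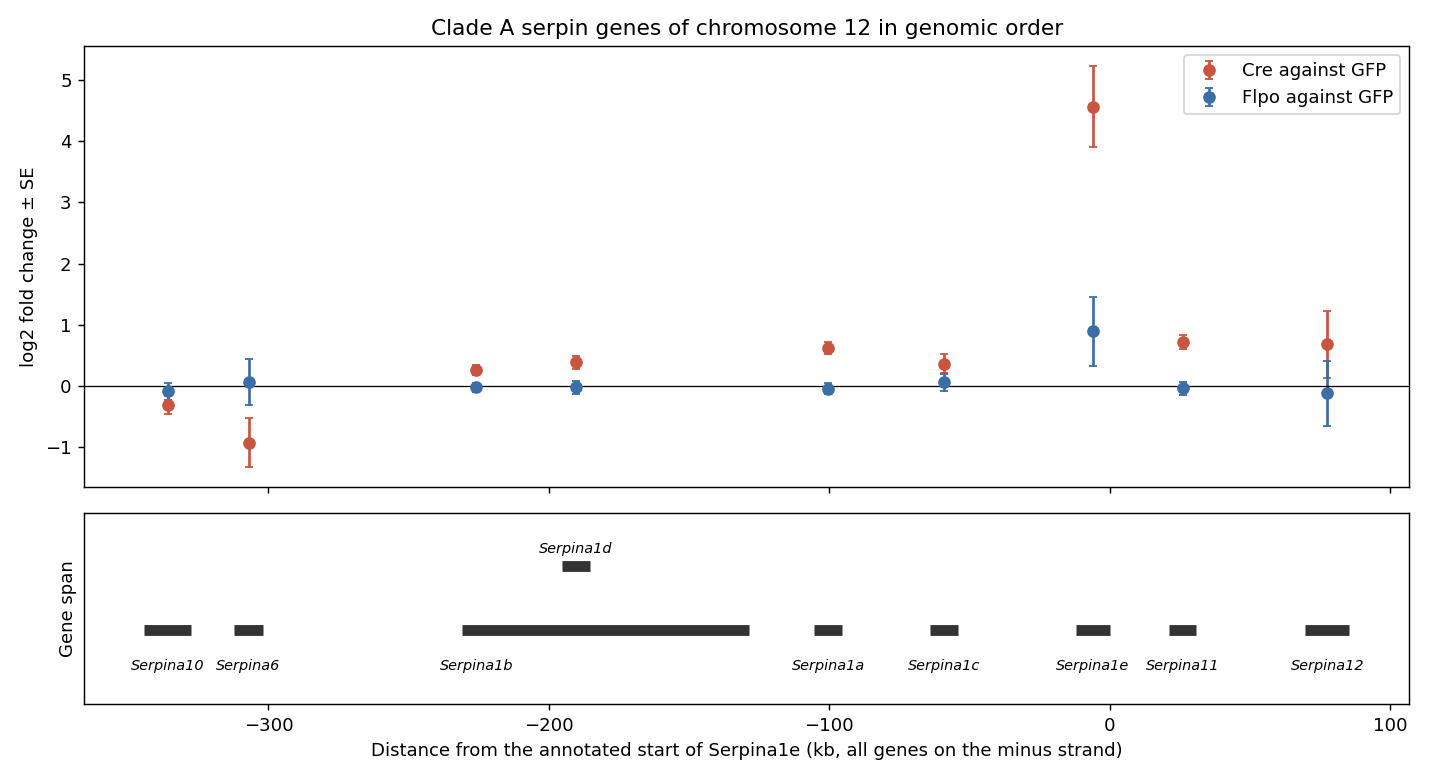
Fitted log2 fold change with its SE for the 9 serpin genes of chromosome 12, placed by distance from the start of Serpina1e in kb, with the gene spans below; values stand at the middle of a span, except Serpina1b, whose value stands at the low end of its long span. The highest value, 4.56, lies between 0.37 at Serpina1c and 0.72 at Serpina11.

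Along chromosome 12 the log2 fold changes of Cre against GFP did not form a plateau. From Serpina10 onward they read -0.32, -0.92 at Serpina6, 0.26 at Serpina1b, 0.39 at Serpina1d, 0.61 at Serpina1a, 0.37 at Serpina1c, 4.56 at Serpina1e, 0.72 at Serpina11 and 0.68 at Serpina12. The 7 members from Serpina1b to Serpina12 had values above 0 and the 2 members before them values below 0. That of Serpina12 had an SE of 0.55, and Serpina9, which lies before it, did not pass the filter. These signs come from the contrast by which the members were picked, and no pattern along the chromosome was tested.

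Within groups, the level of Serpina1e went with that of Serpina11. After the group means were taken off, Pearson's r between them was 0.82 and Spearman's rho 0.87 over the 16 libraries, as a description with no test. Serpina1a and Serpina1b had r = 0.81, and Serpina1a and Serpina1e had r = 0.75. The lowest value, r = -0.60, was between Serpina7 and Serpina1b. Libraries share their depth and scaling, and 16 libraries give wide room for such values.

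**Figure D5:**
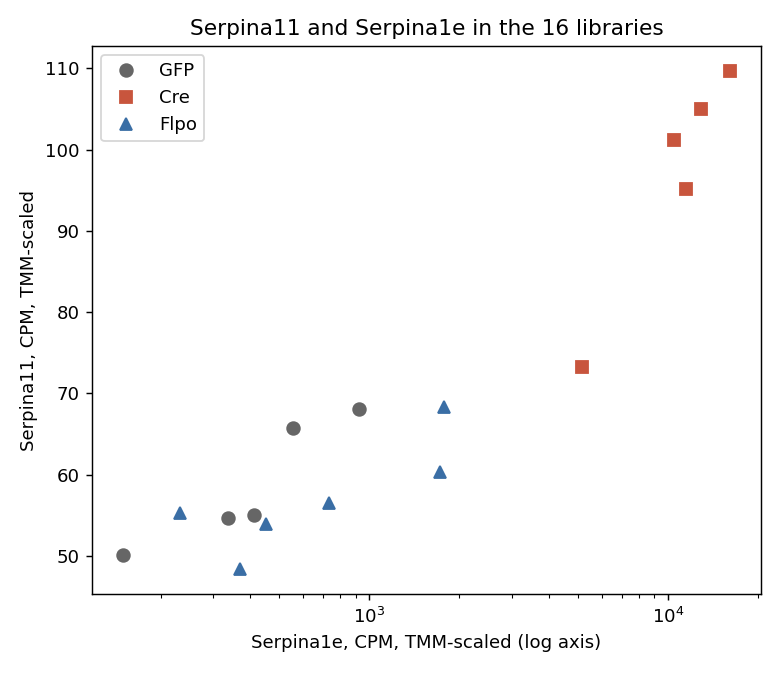
Level of Serpina11 against that of Serpina1e in the 16 libraries, both in CPM scaled with TMM factors, with Serpina1e on a log axis. Within Cre the lowest library for Serpina1e, at 5143 CPM, is also the lowest for Serpina11, at 73.2 CPM.

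The 5 genes most like Serpina1e in the same measure, of 11780 searched with a mean of at least 1 CPM, were Tcf25 (r = 0.85), C8b (r = 0.83), Mup11 (r = 0.83), Elovl3 (r = 0.82) and Mbl1 (r = 0.81). C8b encodes a chain of complement component C8, Mup11 a major urinary protein, Elovl3 a fatty acid elongase and Mbl1 a mannose-binding lectin.

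The remaining clade A serpins were read from a list of 15 genes, of which 6 passed the filter. In Cre against GFP the edgeR test and DESeq2 both called 2 of the 6 higher and 0 lower, where 3.97% of all genes were called higher and 5.58% lower by edgeR, and 3 of the 6 had an unadjusted p under 0.05. Their median log2 fold change was 0.24. Serpina3k, an abundant liver serpin of the antichymotrypsin group, went from 5715 ± 1297 CPM (SD, n = 5) in GFP to 11943 ± 3051 (SD, n = 5) in Cre, a log2 fold change of 1.06 (SE 0.17, adjusted p = 0.000691 by edgeR). The pseudogene Serpina4-ps1 went from 3.05 ± 2.21 to 17.1 ± 6.22 CPM (SD, n = 5 each), at 2.49 (SE 0.54, adjusted p = 0.00933 by edgeR). Between Flpo and Cre both fell in Flpo and Serpina3m rose by 0.70 (SE 0.15, adjusted p = 0.00539 by edgeR). Of all genes edgeR called 7.45% higher and 6.26% lower there. Serpina3n, an acute phase serpin, had a log2 fold change of -0.10 (SE 0.13) in Cre against GFP. The Serpina3 genes also resemble each other, and the sources used here do not say how their shared reads were counted.

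Of 12 liver serpins of other clades, the edgeR test called 1 higher and 2 lower in Cre against GFP, beside 3.97% and 5.58% of all genes. DESeq2, which called 819 of all 13905 genes higher and 1031 lower, called 1 higher and 3 lower of the 12. Their median log2 fold change was -0.14. Serpine2, protease nexin 1, rose by 1.93 (SE 0.32, adjusted p = 0.00119 by edgeR). Serpinb1a, an intracellular inhibitor of neutrophil proteases, fell by 1.87 in log2 terms (SE 0.38, adjusted p = 0.00556 by edgeR), and Serpinb9, an inhibitor of granzyme B, fell by 0.67 (SE 0.19, adjusted p = 0.0336 by edgeR). Serpinh1, the collagen chaperone, was higher in Flpo than in Cre by 0.65 (SE 0.19, adjusted p = 0.0313 by edgeR). In Cre against GFP it was at -0.58 (SE 0.20, adjusted p = 0.0767 by edgeR), with every Cre library below every GFP library. In Flpo against Cre 2 of the 12 were called higher and 1 lower by both tools, beside 7.45% and 6.26% of all genes by edgeR. Antithrombin (Serpinc1) measured 1722 ± 109 CPM in GFP and 1640 ± 193 in Cre (SD, n = 5 each), at -0.07 (SE 0.09), and the C1 inhibitor (Serping1) was at 0.31 (SE 0.12, adjusted p = 0.126 by edgeR).

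Among 16 tested genes for proteases and ligand partners of these serpins, 1 was called higher and 1 lower in Cre against GFP by edgeR and by DESeq2, near the 9.55% of all genes called by edgeR in either direction, with a median of -0.05. Factor XI (F11) rose by 0.71 (SE 0.10, adjusted p = 0.000161 by edgeR), and transthyretin (Ttr), the other carrier of thyroxine in plasma, fell by 0.35 (SE 0.10, adjusted p = 0.0298 by edgeR). Neutrophil elastase (Elane) did not pass the filter, at 0.0551 to 0.847 TPM in the 16 libraries. F11 was lower in Flpo than in Cre, where edgeR and DESeq2 called 0 of the 16 higher and 4 had an unadjusted p under 0.05 in each. Of all genes, edgeR called 7.45% higher and 6.26% lower there. Albumin, which also carries thyroxine, had a log2 fold change of 0.26 (SE 0.11, adjusted p = 0.142 by edgeR) in Cre against GFP.

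Among 18 tested transcription factors known at serpin promoters, the edgeR test called 1 higher and 1 lower in Cre against GFP, near the 9.55% of all genes called in either direction. DESeq2, which called 819 of all 13905 genes higher and 1031 lower, called 2 higher and 1 lower of the 18. Their median log2 fold change was 0.09. Foxa3, a forkhead factor of hepatocytes, went from 46.7 ± 10.5 to 76.2 ± 11.5 CPM (SD, n = 5 each), at 0.71 (SE 0.16, adjusted p = 0.00869 by edgeR). Nr1h4, the bile acid receptor FXR, fell by 0.35 (SE 0.10, adjusted p = 0.0334 by edgeR). Nr1h4 was higher in Flpo than in Cre, and Foxa3 and Stat3, the factor of the acute phase response, were lower. These were the 1 higher and 2 lower of the 18 called by edgeR, beside 7.45% and 6.26% of all genes. DESeq2 called 1 higher and 3 lower of the 18 there. Cebpa and Cebpb, the C/EBP factors of liver, had log2 fold changes of -0.11 (SE 0.10) and -0.12 (SE 0.22) in Cre against GFP.

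Of 18 genes for the folding, export and disposal of alpha-1-antitrypsin, the edgeR test called 2 higher and 0 lower in Cre against GFP, beside 9.55% of all genes in either direction, and 8 of the 18 had an unadjusted p under 0.05. DESeq2, which called 819 of all 13905 genes higher and 1031 lower, called 5 higher and 0 lower of the 18. The median log2 fold change of the 18 was 0.22. Those called by edgeR were Sec24d, a COPII coat protein, at 0.44 (SE 0.13, adjusted p = 0.0416 by edgeR), and Os9, a lectin of disposal from the endoplasmic reticulum, at 0.37 (SE 0.11, adjusted p = 0.0428 by edgeR). Sec24d, Preb and Derl1 were called lower in Flpo than in Cre and 0 of the 18 higher, by edgeR. Of all genes edgeR called 6.26% lower and 7.45% higher there. DESeq2 called 4 of the 18 lower and 0 higher. The chaperones Hspa5 and Calr had log2 fold changes of 0.31 (SE 0.20) and 0.32 (SE 0.16) in Cre against GFP and were not called in any comparison.

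Serpina1e is known to be more abundant in male than in female mouse liver, and of 14 other liver genes with that bias the edgeR test called 11 higher and 1 lower in Cre against GFP, with a median of 1.87, beside 3.97% and 5.58% of all genes. DESeq2, which called 819 of all 13905 genes higher and 1031 lower, called 12 higher and 1 lower of the 14. Cyp7b1, an oxysterol hydroxylase, went from 101 ± 21.5 to 461 ± 150 CPM (SD, n = 5 each), at 2.19 (SE 0.27, adjusted p = 0.000117 by edgeR), and Elovl3 rose by 1.89 (SE 0.26, adjusted p = 0.0003 by edgeR). The gene that fell was C4a, the sex-limited protein of the complement family. In Flpo against Cre the edgeR test called 0 of the 14 higher and 9 lower, beside 7.45% and 6.26% of all genes, and 13 had an unadjusted p under 0.05. There DESeq2, which called 1228 of all 13905 genes higher and 1139 lower, called 1 higher and 11 lower of the 14. Among those lower were Gstp1 at -2.05 (SE 0.25, adjusted p = 7.35e-05 by edgeR) and Ugt2b1 at -0.47 (SE 0.14, adjusted p = 0.0341 by edgeR). Mup7 lay between 155 and 1391 CPM in GFP, 10482 and 36922 in Cre and 20.9 and 7259 in Flpo. Its log2 fold change of 5.18 in Cre against GFP (SE 1.59, adjusted p = 0.0558 by edgeR) was not called, although the Cre libraries were above all others. The list was assembled with results of these data known and is no independent evidence.

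Of 16 acute phase genes, the edgeR test called 0 higher and 4 lower in Cre against GFP, beside 3.97% and 5.58% of all genes, and 8 had an unadjusted p under 0.05. DESeq2, which called 819 of all 13905 genes higher and 1031 lower, called 1 higher and 4 lower of the 16. The median log2 fold change of the 16 was -0.18. Lcn2, the siderophore-binding lipocalin, went from 53.8 ± 6.26 to 10.8 ± 2.14 CPM (SD, n = 5 each), at -2.32 (SE 0.22, adjusted p = 1.67e-05 by edgeR). Orm2 and Orm3, both alpha-1-acid glycoproteins, and Saa2, a serum amyloid A, fell by 1.98, 1.98 and 1.51 on the log2 scale. In Flpo against Cre the same 4 rose and the fibrinogen chains Fga and Fgg fell, beside 7.45% of all genes called higher and 6.26% lower by edgeR. Haptoglobin (Hp) and hemopexin (Hpx) had log2 fold changes of -0.22 (SE 0.12) and -0.15 (SE 0.15) in Cre against GFP. The edgeR test called 0 genes of any of the 7 lists in Flpo against GFP. There the unadjusted p was under 0.05 for 0 of 6 clade A serpins, 0 of 12 other serpins, 2 of 16 proteases and partners, 1 of 18 transcription factors, 2 of 18 secretory genes, 1 of 14 male-biased genes and 0 of 16 acute phase genes. DESeq2, which called 72 of all 13905 genes in Flpo against GFP, called 1 gene, lower, in the list of proteases and partners.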

How the data were processed

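Liver RNA was sequenced after polyA enrichment as paired reads of 150 bases. Trimming with cutadapt and alignment to mm10 with STAR are named per the submitters' processing notes. For the 16 libraries the authors deposited 2 tables with a row per gene, one of estimated counts and one of TPM. Not given in the sources used here is the program behind the estimated counts, with its annotation, use of strand and handling of reads with several matches. Since 31.7% of the values were not whole, the expected counts were rounded.

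Groups and replicate numbers were read from the sample titles. Counts were tested with edgeR 4.0.16 in R 4.3.3. filterByExpr with a minimum count of 10 kept 13905 of 55487 rows, TMM factors scaled the libraries, and all 16 libraries entered 1 robust quasi-likelihood fit. Genes were called at a Benjamini-Hochberg adjusted p under 0.05 over all genes. No share of all genes is given for unadjusted p-values or for groups that did not overlap. Such separation of groups is therefore given as a description only. An SE is the log2 fold change over the square root of its F statistic. Shares of TPM were compared with exact permutation tests. Gene symbols of 53409 rows matched GENCODE M21. The fit was tested on simulated data with known changes.

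The members and the 7 gene lists were chosen with earlier results of these data known. All members are named. From each list the text names up to 4 called genes with the smallest adjusted p and up to 2 with the highest mean TPM. Mapk8, Mapk9, C4a, Fga, Fgg, Elane, Serpina9, Gm28577 and the marker genes were named for other reasons, after their values were seen. Alternatives were other size factors, library totals, no filter and a filter on CPM of at least 1, DESeq2 1.42.0, limma-voom and limma 3.58.1 on log2(TPM + 1) and log2(TPM + 0.1) of the deposited TPM, a block for the replicate number, a fit of only the 2 groups compared, removal of the Mup genes before scaling, an adjusted p under 0.01, and each library left out in turn.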

Additional observations from a re-analysis of the deposited data

Results flagged for a closer look

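The Serpina1 copies took 3.78% of all TPM in Cre replicate 1, whereas the next highest Cre library was at 3.14%. The gap to its neighbour was 0.832 of the range of the 5 Cre libraries, above the 95% critical value of 0.710 of Dixon's test. It was the only one of 36 sets of libraries (a gene or share in a group) beyond its critical value, and chance alone gives about 5% of sets.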

How the results depend on the processing

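Over 28 alternatives each of the 10 members kept its direction in Cre against GFP and in Flpo against Cre, and Serpina1a, Serpina1e and Serpina11 were called in all 28 in both. At an adjusted p under 0.01, 3 members were called in Flpo against Cre, against 6. With limma on log2(TPM + 1) and on log2(TPM + 0.1) the summed copies were at -0.70 in Flpo against Cre in both, against -0.90. These fits also called Serpina10 in both Cre comparisons and Serpina6 in Flpo against Cre, and the call of Serpina1b in Flpo against Cre was lost in 5 alternatives, library totals and both TPM fits among them. Serpina1b was called higher in Cre than in GFP in 5 alternatives, one of them without Flpo replicate 1 (0.27). Its lowest value there was 0.07, with limma on log2(TPM + 1). Serpina7 was called lower in Cre than in GFP in 4, one of them without Cre replicate 2 (-1.19), and Serpina6 was called in Flpo against Cre without Cre replicate 4 (1.34). In Flpo against GFP 0 members were called in any alternative. Over all genes, DESeq2 called 72 genes in Flpo against GFP, against 4, and the causes were not tested. Libraries with the same replicate number did not deviate together (r from -0.16 to 0.12 over 15 pairs, and 3 of 15 libraries correlated best with their own number). This gave no sign that the numbers pair the samples, but a pairing with little effect on expression would not show in it. With the replicate number as a block, 3, 0 and 5 members were called in Cre against GFP, Flpo against GFP and Flpo against Cre, and the shares of the copies and of Serpina1e differed by 0.119 and 2.35 points between Flpo and GFP (exact permutation, p = 0.625 and 0.500, smallest possible 0.0625). Groups of 5 and 6 libraries limit what can be called for the members with wide spread, such as Serpina12.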
